A study of Mus musculus with 4 samples.

Results

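The 10 genes Cdkn1a, Mdm2, Bbc3, Pmaip1, Sesn1, Sesn2, Ccng1, Bax, Trp53inp1 and Perp are well-known transcriptional targets of the tumour suppressor p53. They were read here in IMS/N cells, a mouse line derived from hepatic stellate cells of normal 129/Sv livers and made immortal by infecting the cells with SV40. Members were chosen by gene symbol, as all probes named for them by the array or by a RefSeq accession. All 10 were on the array, out of 26793 gene names, with 16 probes between them. Each of the 16 probes was well above background on every array. The 4 cultures were PA and ADSC medium, PA alone, ADSC medium alone, and a control with neither, with 1 array each. PA is palmitic acid, a saturated fatty acid; the sources used here state neither its dose and time nor what vehicle the control received. ADSC medium was taken from cultures of adipose-derived stem cells, which came from the inguinal fat of male C57BL/6J mice aged 8-10 weeks. The effect of the cells' products and that of the medium itself cannot be told apart. All 4 cultures came from the same immortalized line, so none is without the SV40 infection, and no culture is a p53-deficient or a p53-activated control. Viral transcripts were not analysed here.

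p53 is a transcription factor that stress stabilizes, and that binds pairs of a short palindromic element of 10 bases near its targets. Its targets stop the cell cycle (Cdkn1a), start cell death at the mitochondrion (Bbc3, Pmaip1, Bax), hold back growth signalling through mTORC1 (Sesn1, Sesn2), or feed back on p53 itself (Mdm2). The large T antigen of SV40 is known for binding both p53 and the retinoblastoma proteins, and T antigen bound to p53 hinders its binding to DNA. Several of these targets also answer to other factors, among them FOXO factors for Sesn1 and Bbc3, and ATF4 for Sesn2.

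Levels below are log2 intensities of the scanner's processed signal after quantile normalization across the 4 arrays, and a difference is 1 array's level minus another's. The arrays shared 1 slide and 1 scan, and 67.5% to 70.0% of their probes were well above background. With 1 array for each culture no difference has a replicate check, and no p-value is given. What the arrays do hold is a measure of spot error, since some probes are printed on several spots. From those probes, the SD of a spot-to-spot difference on the log2 scale was 0.059 where levels ran from 11 to 13, 0.121 where they ran from 5 to 7, and 0.290 for dimmer probes. This error includes the printing and reading of the array, not the variation between cultures.

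The promoters of these genes come first, and were searched for the letters that p53 reads. RefSeq (GRCm38.p6) gave windows of 300 bases, from 250 before to 50 after a start site, for 7 of the members (11 windows in all). No window of Pmaip1, Trp53inp1 or Perp was searched, so the counts below say nothing of their promoters. On either strand, the consensus of that p53 element occurred in 5 of the 11 windows, 1 each for Cdkn1a, Mdm2, Ccng1, Bax and Sesn1, and in 8.36% of all 32851 windows. A pair of such elements at most 13 bases apart occurred only in the upstream Cdkn1a window, and in 0.0731% of all windows. CATGNNNNNNCATG, the centres of an adjoining pair, was chosen as a motif after that sequence was seen. It also occurred only there among the members, and in 0.712% of all windows. In the 3 windows below the capitals mark the p53 elements and, in Cdkn1a, also the paired centres, which overlap the second element:
Cdkn1a (chr17:29090729-29091028, GRCm38.p6, + strand): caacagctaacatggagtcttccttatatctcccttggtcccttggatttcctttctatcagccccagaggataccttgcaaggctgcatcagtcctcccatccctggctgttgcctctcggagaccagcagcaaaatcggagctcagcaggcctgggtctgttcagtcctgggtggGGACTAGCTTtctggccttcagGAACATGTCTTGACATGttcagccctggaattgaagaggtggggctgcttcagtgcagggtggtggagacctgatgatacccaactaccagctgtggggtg
Mdm2 (chr10:117710709-117711008, GRCm38.p6, - strand): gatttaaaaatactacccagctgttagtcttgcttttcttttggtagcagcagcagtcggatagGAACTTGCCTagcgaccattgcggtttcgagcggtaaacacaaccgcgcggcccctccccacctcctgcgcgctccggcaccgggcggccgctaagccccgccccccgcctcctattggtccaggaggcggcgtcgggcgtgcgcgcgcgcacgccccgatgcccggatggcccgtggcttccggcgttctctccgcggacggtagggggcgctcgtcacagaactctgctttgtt
Sesn1 (chr10:41887189-41887488, GRCm38.p6, + strand): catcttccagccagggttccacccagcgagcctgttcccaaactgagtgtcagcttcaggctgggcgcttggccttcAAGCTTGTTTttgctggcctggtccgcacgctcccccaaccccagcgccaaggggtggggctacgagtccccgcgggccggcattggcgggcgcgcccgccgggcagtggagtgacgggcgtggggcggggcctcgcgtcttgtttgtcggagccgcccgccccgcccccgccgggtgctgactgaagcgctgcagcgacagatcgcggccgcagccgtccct
The Cdkn1a window belongs to the upstream one of its pair of start sites. The elements lay 73 to 42 bases before that start in Cdkn1a, 186 to 177 bases before it in Mdm2 and 173 to 164 bases before it in Sesn1. Of the other motifs searched on both strands, TGTTTAC, a core read by FOXO factors, occurred in 3 of the 11 windows (Bbc3, Mdm2 and the other Sesn1 window), against 3.65% of all. TGATGNAA (ATF4), TTCGCGC (E2F) and GAAANNGAAA (interferon-stimulated) occurred in none of the 11, against 3.97%, 1.59% and 3.44% of all windows. A match describes the letters only, and binding was not measured.

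The probes that measured the transcripts are shown for the gene whose pattern stood apart, Sesn1, and for 2 genes with a repeatedly printed probe, Mdm2 and Bax. Positions are those of the array's files, on build mm9, whose exon annotation was not used here. The probes are:
Sesn1 probe A_52_P53596 (chr10:41627097-41627156, + strand): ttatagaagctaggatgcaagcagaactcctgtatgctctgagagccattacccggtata
Sesn1 probe A_51_P266644 (chr10:41618206-41622368, + strand): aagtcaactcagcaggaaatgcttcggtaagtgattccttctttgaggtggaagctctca
Mdm2 probe A_51_P201346 (chr10:117129725-117129784, - strand): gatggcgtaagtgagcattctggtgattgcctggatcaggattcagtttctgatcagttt
Bax probe A_51_P254541 (chr7:52721469-52721624, - strand): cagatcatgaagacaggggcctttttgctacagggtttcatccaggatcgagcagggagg
These 4 were picked among probes with at least 1 reading frame without a stop codon, so that trait is no result. The Cdkn1a probe, also printed on 10 spots, and the brightest Sesn1 probe have no such frame and are not shown. The 60 letters of the second Sesn1 probe span 4163 bases of the genome and those of the Bax probe 156 bases, so both cross at least 1 splice junction and read spliced RNA. The third Sesn1 probe, A_51_P233954, lies at chr10:41628000-41628059 and was the brightest of the 3.

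Across the 4 cultures the members fell into a few patterns. Cdkn1a, Mdm2, Pmaip1 and Trp53inp1 were at their highest with PA and ADSC medium, next with PA, then with ADSC medium, and lowest in the control. Bbc3 differed from that order only in its top pair, which was closer than the spot error allows to be told apart. Sesn1 was lowest with PA alone, Perp and Sesn2 were highest there, Ccng1 was highest with ADSC medium alone, and Bax hardly differed. In RNA of a whole culture, fewer cells with a transcript and less of it in each cell cannot be told apart.

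**Figure D1:**
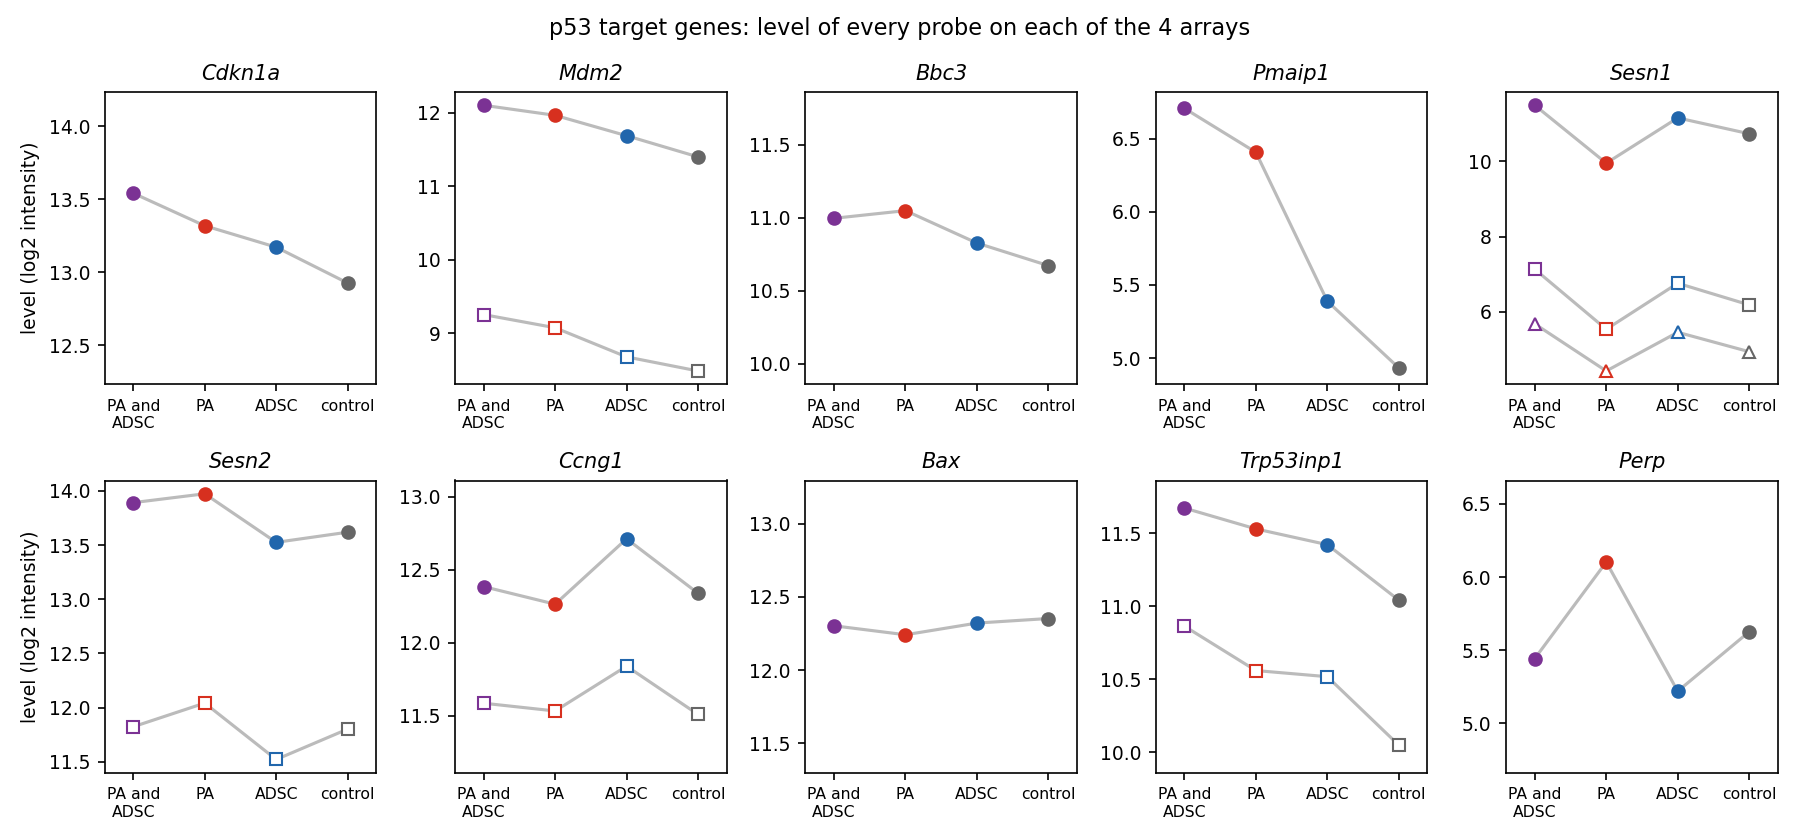
Level (log2 intensity, quantile-normalized) of each of the 16 probes of the 10 p53 target genes on the 4 arrays, 1 panel for each gene. Filled circles are the brightest probe of a gene, open squares and triangles its other probes, and each panel has its own axis range. All 3 Sesn1 probes dip on the PA array, where the brightest stood at 9.95 against 10.73 in control.

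Cdkn1a encodes p21, the inhibitor of cyclin-dependent kinases through which p53 halts the cell cycle. Its probe (chr17:29237377-29237436) had a level of 13.54 with PA and ADSC medium, 13.32 with PA, 13.17 with ADSC medium and 12.93 in control. The control culture was the lowest and the doubly treated one the highest, and each step between neighbours was over 2 spot SDs. The probe is printed on 10 spots, of which 8 or 9 were usable. The spots averaged 13.54 ± 0.036 with PA and ADSC medium (SD, n = 9 spots) and 13.32 ± 0.031 with PA (n = 9). They averaged 13.17 ± 0.030 with ADSC medium (n = 8) and 12.93 ± 0.026 in control (n = 9). No spot of any array reached the range of another array, which separates these 4 hybridizations but not the conditions behind them. Cdkn1a was 1.31-fold higher with PA than in control, 1.29-fold higher with PA and ADSC medium than with ADSC medium alone, and 1.53-fold higher with both than in control.

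Mdm2 encodes the ubiquitin ligase that degrades p53 and is itself switched on by it. Its brighter probe (A_52_P469842, chr10:117126278-117126337) stood at 12.101 with PA and ADSC medium, 11.96 with PA, 11.69 with ADSC medium and 11.40 in control. The other probe, printed above, kept that order at 9.26, 9.08, 8.68 and 8.49. Over its 10 spots, the lowest and highest were 9.20 and 9.30 with both treatments, 9.02 and 9.15 with PA, 8.62 and 8.73 with ADSC medium, and 8.40 and 8.58 in control. As for Cdkn1a, no pair of arrays overlapped. With PA against control Mdm2 was 1.48-fold higher by the brighter probe and 1.503-fold by the other, so the probes fall on either side of a 1.5-fold limit. Against control, both were past it with PA and ADSC medium, at 1.63-fold and 1.70-fold higher.

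**Figure D2:**
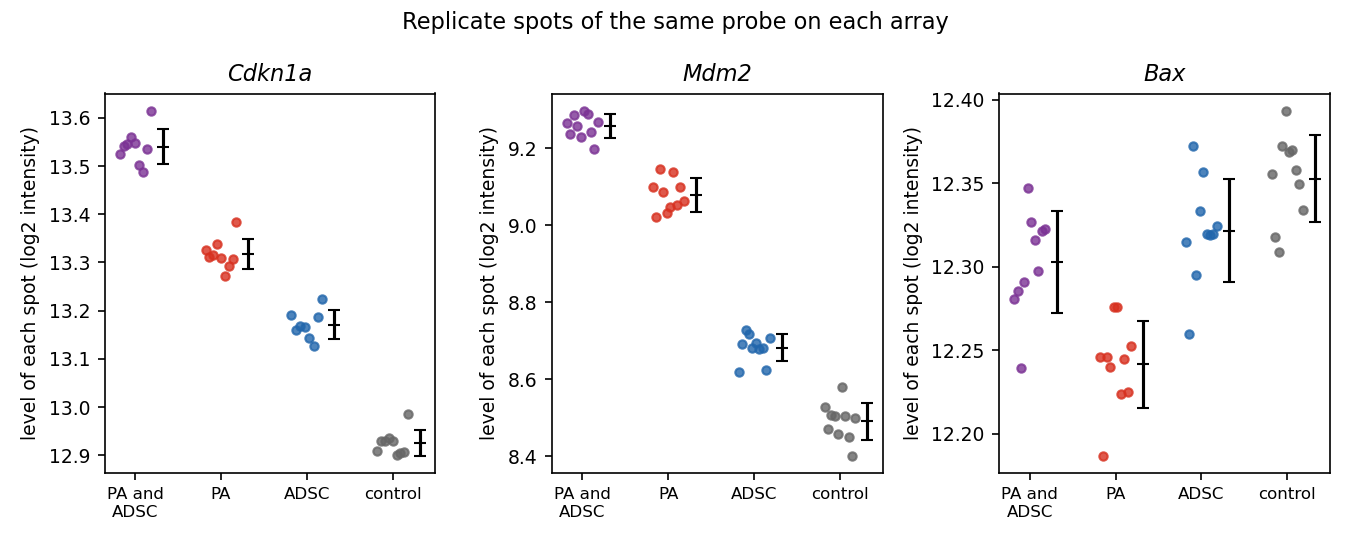
Level (log2 intensity) of every usable spot of the Cdkn1a, Mdm2 (A_51_P201346) and Bax probes on the 4 arrays, with mean and SD beside the spots (n = 8 to 10 spots of 1 array each). Spots of Cdkn1a and Mdm2 separate all 4 arrays. For PA and ADSC medium against control their means were 13.54 against 12.93 and 9.26 against 8.49. Those of Bax overlap, except between PA and control. Spots are technical repeats, and each panel has its own axis range.

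Trp53inp1 encodes a stress-induced nuclear protein that helps p53 activate its death-related targets and takes part in autophagy. Its brighter probe (chr4:11101174-11101233) had a level of 11.67 with PA and ADSC medium, 11.53 with PA, 11.42 with ADSC medium and 11.04 in control. Its other probe (chr4:11098180-11098239) had 10.86, 10.56, 10.52 and 10.05 in the same order of cultures. The control was lowest by both probes, and the gap between PA and ADSC medium, each given alone, was within 2 spot SDs by both. Trp53inp1 was 1.40-fold higher with PA than in control, 1.30-fold higher with ADSC medium than in control, and 1.55-fold higher with both treatments than in control.

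Ccng1 encodes cyclin G1, a p53-induced protein that acts with the phosphatase PP2A on Mdm2. Its brighter probe (chr11:40562427-40562486) stood at 12.39 with PA and ADSC medium, 12.26 with PA, 12.71 with ADSC medium and 12.34 in control. The other probe (chr11:40564413-40564472) read 11.59, 11.53, 11.84 and 11.51 in that order. The ADSC medium culture was the highest by both probes, and the other 3 lay close together. Ccng1 was 1.30-fold higher with ADSC medium than in control. With PA added to ADSC medium it was 1.25-fold lower than with ADSC medium alone.

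Pmaip1 encodes Noxa, a BH3-only protein that neutralizes the survival protein Mcl1. Its 1 probe had a level of 6.71 with PA and ADSC medium, 6.41 with PA, 5.39 with ADSC medium and 4.93 in control. Both cultures with PA were above both without it. Pmaip1 was 2.78-fold higher with PA than in control and 2.50-fold higher with PA and ADSC medium than with ADSC medium. The size depends on the treatment of the background at this low level: with normexp background correction the differences of 1.48 and 1.32 on the log2 scale became 0.64 and 0.69, still past 1.5-fold. Pmaip1 is also known to be transcribed without p53, in response to interferon regulatory factors and to ATF4. Genes of both kinds were higher on the same arrays, as given below, and their part in this result was not tested.

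Bbc3 encodes Puma, a BH3-only protein that frees Bax and Bak. Its probe (chr7:16903403-16903462) had a level of 10.995 with PA and ADSC medium, 11.05 with PA, 10.83 with ADSC medium and 10.67 in control. Bbc3 was 1.30-fold higher with PA than in control and 1.12-fold higher with PA and ADSC medium than with ADSC medium. Bax, which encodes the pore-forming protein that these BH3-only proteins set free, had a level of 12.30 with PA and ADSC medium, 12.24 with PA, 12.32 with ADSC medium and 12.35 in control. Its spots ran from 12.24 to 12.35 with both treatments and from 12.19 to 12.28 with PA. They ran from 12.26 to 12.37 with ADSC medium and from 12.31 to 12.39 in control. The 4 arrays thus overlapped except for PA and control, whose means were 0.11 apart, a 1.08-fold lower level with PA.

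Perp encodes a tetraspan membrane protein of desmosomes that takes part in p53-driven death. Its probe (chr10:18576697-18576756) had a level of 5.44 with PA and ADSC medium, 6.10 with PA, 5.22 with ADSC medium and 5.63 in control. PA alone was the highest and ADSC medium alone the lowest. Perp was 1.39-fold higher with PA than in control and 1.58-fold lower with PA and ADSC medium than with PA. The first difference, 0.48 on the log2 scale, was 0.23 with normexp background correction. The second, -0.66 on the log2 scale, was -0.58 after 75th percentile scaling and -0.30 with normexp, both short of 1.5-fold.

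Sesn1 and Sesn2 encode sestrins, which restrain mTORC1 by binding the GATOR2 complex; Sesn2 is also a sensor of leucine. The brightest Sesn1 probe (A_51_P233954) had a level of 11.48 with PA and ADSC medium, 9.95 with PA, 11.15 with ADSC medium and 10.73 in control. Probe A_52_P53596 read 7.13, 5.54, 6.76 and 6.19, and probe A_51_P266644 read 5.68, 4.43, 5.46 and 4.94, in the same order of cultures. By all 3 probes the PA culture read lowest and the doubly treated culture the highest. Sesn1 was 1.72-fold lower with PA than in control by the brightest probe, 1.57-fold by A_52_P53596 and 1.43-fold by A_51_P266644, whose difference of -0.51 was within 2 spot SDs (0.290 each at this level). It was, with PA and ADSC medium, 2.90-fold, 3.02-fold and 2.38-fold higher than with PA by the same 3 probes. ADSC medium alone gave 1.34-fold to 1.49-fold higher levels than control over the 3 probes.

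Sesn2 followed another pattern. Its brighter probe (chr4:132047974-132048033) had a level of 13.89 with PA and ADSC medium, 13.97 with PA, 13.53 with ADSC medium and 13.62 in control. The other probe (chr4:132048858-132048917) read 11.82, 12.04, 11.52 and 11.80. Sesn2 was thus 1.28-fold higher with PA than in control by the brighter probe and 1.18-fold by the other, and its direction there was opposite to that of Sesn1. Against control, PA and ADSC medium gave by these probes 1.21-fold and 1.02-fold, so the second showed no difference beyond spot error.

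The comparison of PA with control asks how the fatty acid alone bore on these genes. Of the 10 members, 1 was at least 1.5-fold higher (Pmaip1) and 1 as much lower (Sesn1), where 2.92% and 3.27% of 18209 genes compared were that much higher or lower. Mdm2 (0.57), Trp53inp1 (0.49), Perp (0.48), Cdkn1a (0.39), Bbc3 (0.38) and Sesn2 (0.35) were higher by less. Higher by any amount were 7 of 10 members, against 48.5% of all genes. The members' median difference was 0.38, against -0.01 over all genes. Past 2 spot SDs were 8 of 10 members, all but Ccng1 and Bax, against 38.2% of all genes well above background on both arrays. That SD is for single spots, whereas the Bax level averages 10 spots, and its PA and control spots did not overlap.

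The same fatty acid was also given on top of ADSC medium, a contrast that shares no array with the first. With PA and ADSC medium against ADSC medium, 1 of 10 members was at least 1.5-fold higher (Pmaip1) and 0 were as much lower, against 3.54% and 3.14% of 18465 genes. Higher by any amount were 8 of 10, against 47.4% of all genes, and the median was 0.29, against -0.02 over all genes. Mdm2 (0.41), Cdkn1a (0.37), Sesn2 (0.37), Sesn1 (0.33) and Trp53inp1 (0.25) were higher by less than 1.5-fold, and Ccng1 (-0.33) was lower. By the brightest probes, the PA difference had the same sign without and with ADSC medium for 9 of 10 members, all but Sesn1. The share was 63.8% of the 17355 genes well above background on all arrays. Within 2 spot SDs were Ccng1 and Bax without ADSC medium, and Bax and Perp with it. The other Ccng1 probe differed by 0.02 without ADSC medium and by -0.25 with it.

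**Figure D3:**
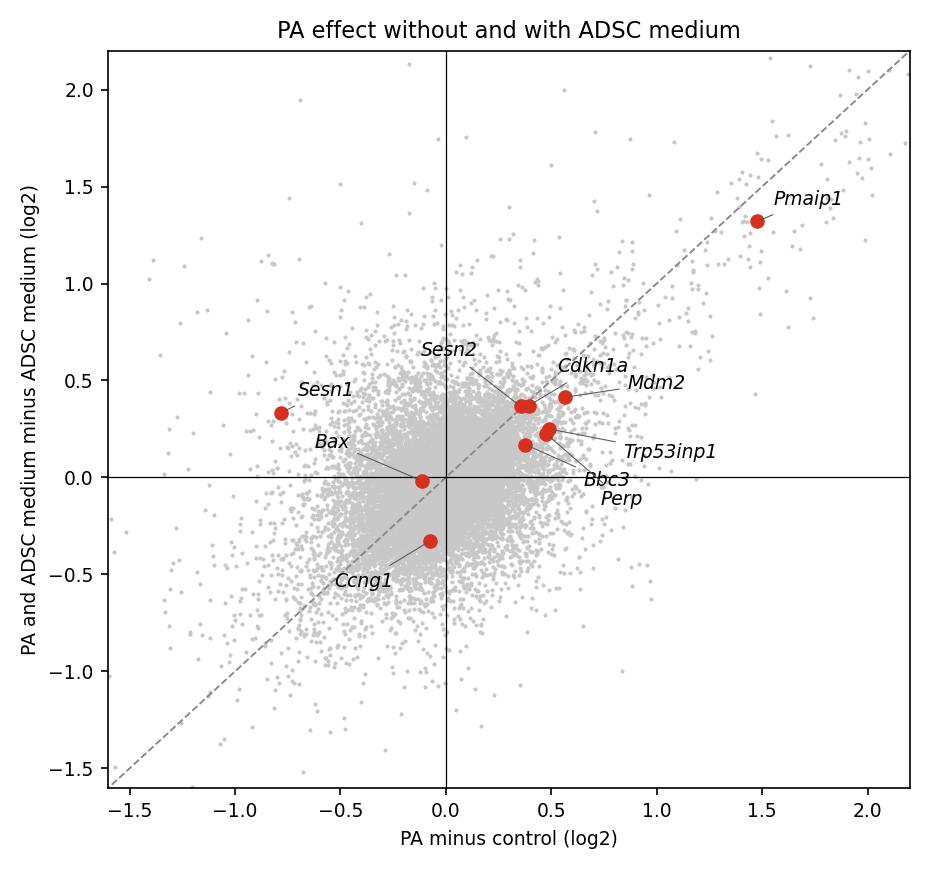
Difference of PA against control (horizontal axis, log2) and of PA and ADSC medium against ADSC medium (vertical axis, log2) for each gene well above background on all 4 arrays; red points are the 10 p53 target genes, the dashed line marks equal values, and genes beyond the axes are not drawn. Pmaip1 lies at 1.48 and 1.32 and Sesn1 at -0.78 and 0.33.

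Sesn1 was the member whose PA difference moved most with ADSC medium. The PA difference with ADSC medium minus that without it was 1.12 by the brightest Sesn1 probe, and 1.02 and 0.73 by the others. Over the other 9 members it lay between -0.25 and 0.09. It was past 1.5-fold upward for 1 of 10 members, where 3.92% of the 17355 genes were, and downward for 0 of 10, where 2.78% were. These are single differences of 4 arrays and were not tested.

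The study's title asks whether ADSCs restore PA-treated stellate cells, which the arrays with PA, with and without ADSC medium, address. With PA and ADSC medium against PA, 1 of 10 members was at least 1.5-fold higher (Sesn1) and 1 as much lower (Perp), against 5.25% and 3.72% of 18751 genes. The split over all genes, 985 higher and 698 lower, became 1290 and 462 with 75th percentile scaling. Pmaip1 (0.30), Cdkn1a (0.22), Trp53inp1 (0.14), Mdm2 (0.14) and Ccng1 (0.12) were higher by less, and so not below their PA level. Higher by any amount were 7 of 10, against 46.4% of all genes, and the median of the 10 was 0.13, against -0.02 over all genes. Differences of Bbc3 (-0.05), Sesn2 by its brighter probe (-0.08) and Bax (0.06) were within 2 spot SDs. The other Sesn2 probe differed by -0.22, which was past 2 spot SDs (0.059 each).

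With ADSC medium against control, without PA, 0 of 10 members passed 1.5-fold in either direction, where 2.31% and 1.29% of 18198 genes were higher or lower. Pmaip1 (0.46), Sesn1 (0.42), Trp53inp1 (0.38), Ccng1 (0.37), Mdm2 (0.29), Cdkn1a (0.25) and Bbc3 (0.15) were higher and Perp (-0.41), Sesn2 (-0.09) and Bax (-0.03) lower. With normexp Pmaip1 was higher by 0.14 and Perp differed by -0.14. The other Sesn2 probe differed by -0.28, past 2 spot SDs. Higher by any amount were 7 of 10, against 48.1% of all genes, and the median was 0.27, against -0.01 over all genes. Past 2 spot SDs were 8 of 10, against 23.7% of all genes. The sign of the medium's difference was the same with and without PA for 8 of 10 members, all but Bbc3 and Bax, and for 63.1% of all genes.

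Set against control, PA and ADSC medium together gave the largest number of members past the limit among these 5 comparisons. At least 1.5-fold higher were 5 of 10 (Pmaip1 at 1.78, Sesn1 at 0.76, Mdm2 at 0.70, Trp53inp1 at 0.63 and Cdkn1a at 0.61 on the log2 scale), against 4.68% of 18251 genes. As much lower were 0 of 10, against 3.67%. Of the 10, 1 was at least 2-fold higher (Pmaip1), against 1.81% of all genes. Higher by any amount were 8 of 10, against 46.5%, and the median was 0.47, against -0.02 over all genes. This comparison shares its control array with 2 of the others and its PA and ADSC medium array with the other 2, so its values are no separate evidence of their directions.

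**Figure D4:**
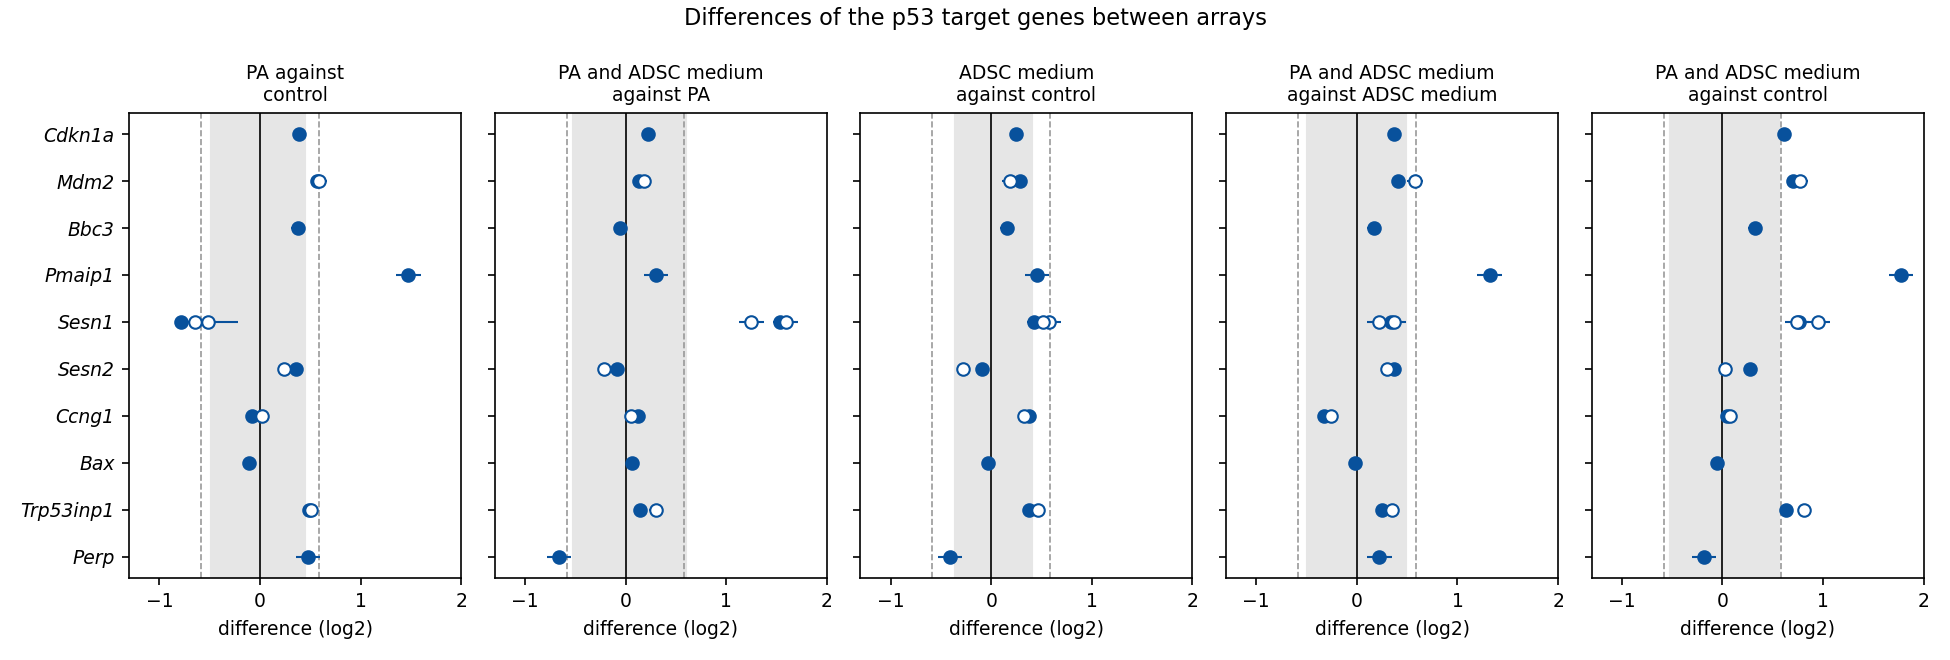
Difference (log2) of each p53 target gene in the 5 comparisons; filled points are the brightest probe and open points the other probes of the gene, bars are 1 SD of a spot-to-spot difference, grey bands hold the middle of all genes from the 5th to the 95th percentile, and dashed lines mark 1.5-fold. Pmaip1 lies beyond the lines in all 3 contrasts that add PA to a culture without it, and Sesn1 at -0.78 for PA against control and 1.54 for PA and ADSC medium against PA.

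p53 itself and its regulators were read from a list of 15 genes. Trp53, which encodes p53, had a level of 10.65 with PA and ADSC medium, 10.84 with PA, 10.48 with ADSC medium and 10.82 in control. Its transcript was thus lower with ADSC medium than in control (-0.34) and close to control with PA (0.02); the protein was not measured. Mdm4, a relative of Mdm2 that masks p53, differed by 0.23 with PA against control and by -0.13 with PA and ADSC medium against PA. Cdkn2a, whose ARF product blocks Mdm2, differed by -0.13 and 0.36 in those comparisons. Trp73, a p53 relative, ran from 6.60 to 6.80 over the arrays, and Trp63, the other relative, was not well above background on any. Of 14 regulators compared, 0 passed 1.5-fold with PA against control, with ADSC medium against control or with PA added to ADSC medium. Over all genes, 2.92% and 3.27%, 2.31% and 1.29%, and 3.54% and 3.14% were higher and lower by that much in these comparisons, so counts of 0 or 1 in lists of this size, here and below, are near the background. Hipk2, a kinase of p53, was higher with PA and ADSC medium than with PA (0.63) and than in control (0.59).

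A further 28 p53 targets outside the 10 members were listed, such as Gadd45a, Btg2, Zmat3, Fas and Ddb2. With PA against control 23 of 28 were higher by any amount, against 48.5% of all genes. Past 1.5-fold were 1 upward (Gdf15, a stress-induced cytokine, at 0.61) and 0 downward, near the shares of 2.92% and 3.27% over all genes. Their median was 0.21, against -0.01 over all genes. With PA added to ADSC medium 18 of 28 were higher, against 47.4% of all genes, and 0 by 1.5-fold, with a median of 0.03. In the other comparisons of this list, 1 gene passed 1.5-fold, Eda2r, a receptor of the TNF family, at 0.62 with PA and ADSC medium against control. Gdf15 had a level of 11.91 with PA and ADSC medium, 12.06 with PA, 11.39 with ADSC medium and 11.45 in control.

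Other BCL-2 family genes, the partners of Bax, Bbc3 and Pmaip1, showed 0 of 10 compared past 1.5-fold with PA against control. Bcl2, a survival gene, was lower with PA and ADSC medium than with ADSC medium (-0.63), and Bok, a relative of Bax, was lower with both treatments than in control (-0.72). Hrk, a BH3-only gene, was higher with PA and ADSC medium than with PA (0.64), at a level of 2.75 against 2.11, and was not well above background on the other arrays.

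Genes of the cell cycle, on which p21 acts, were read in 3 lists. Of 14 genes of the G1 machinery, 0 passed 1.5-fold with PA against control, and the only one past it in the 5 comparisons was Cdkn2d, an inhibitor of Cdk4 and Cdk6, at -0.59 with both treatments against control. Rb1, the retinoblastoma gene, ran from 9.60 to 9.76 over the 4 arrays, and Ccnd1, which encodes cyclin D1, was higher with ADSC medium than in control (0.38). Of 20 replication genes driven by E2F, which the retinoblastoma proteins hold back, 0 passed 1.5-fold in any of the 5 comparisons, and medians lay between 0.02 and 0.14. Pcna, the sliding clamp of replication, ran from 15.03 to 15.31. Of 15 mitotic genes that p53 is known to lower through p21, 12 were lower by any amount with PA against control (median -0.20), as were 51.3% of all genes. With PA added to ADSC medium 14 of 15 were lower, against 52.4% of all genes, with a median of -0.37 and 1 past 1.5-fold, Plk1, a mitotic kinase, at -0.61. All 15 were lower with PA and ADSC medium against PA, against 53.5% of all genes, with a median of -0.14, by less than 1.5-fold each.

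Relatives of the sestrins, cyclin G1 and Trp53inp1, subunits of the GATOR complexes, and Castor1 and Castor2 made a list of 13. With PA against control 0 of 13 passed 1.5-fold (median -0.02). Castor1, an arginine sensor that binds GATOR2 as sestrins do, was lower with PA and ADSC medium than with PA (-0.82), opposite to Sesn1 on the same 2 arrays.

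Stress and interferon genes were higher in both comparisons that add PA, where Pmaip1 was too. Of 15 genes of the ATF4 response 12 were higher by any amount with PA against control (median 0.28), against 48.5% of all genes, and 15 of 15 with PA added to ADSC medium (median 0.30), against 47.4%. With ADSC medium against control, where Pmaip1 was higher by 0.46 (0.14 with normexp), 2 of 15 were higher (median -0.08), against 48.1%. With PA and ADSC medium against PA, where Pmaip1 was higher by 0.30, 5 of 15 were higher (median -0.01), against 46.4%. Atf3, a stress-induced factor, was past 1.5-fold upward with PA against control (0.88) and with PA added to ADSC medium (1.17). Ppp1r15a, which ends the stress response, was past it with PA added to ADSC medium (0.63). Of 15 interferon response genes 14 passed 1.5-fold upward with PA against control (median 2.44), against 2.92% of all genes, and 14 with PA added to ADSC medium (median 2.41), against 3.54%. Past it were 0 of 15 with PA and ADSC medium against PA (median -0.24). Mx2, an antiviral GTPase, differed by 3.41, 3.26 and -0.32 in these 3 comparisons. The next in size with PA against control were the antiviral genes Rsad2 (3.37), Zbp1 (3.23) and Ifit3 (3.22). With PA added to ADSC medium they were Zbp1 (2.76), the chemokine gene Cxcl10 (2.60) and Ifit3 (2.53). Rsad2 was also past 1.5-fold with ADSC medium against control (0.59). The part of these genes' regulators in the levels of the p53 targets was not tested.

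**Figure D5:**
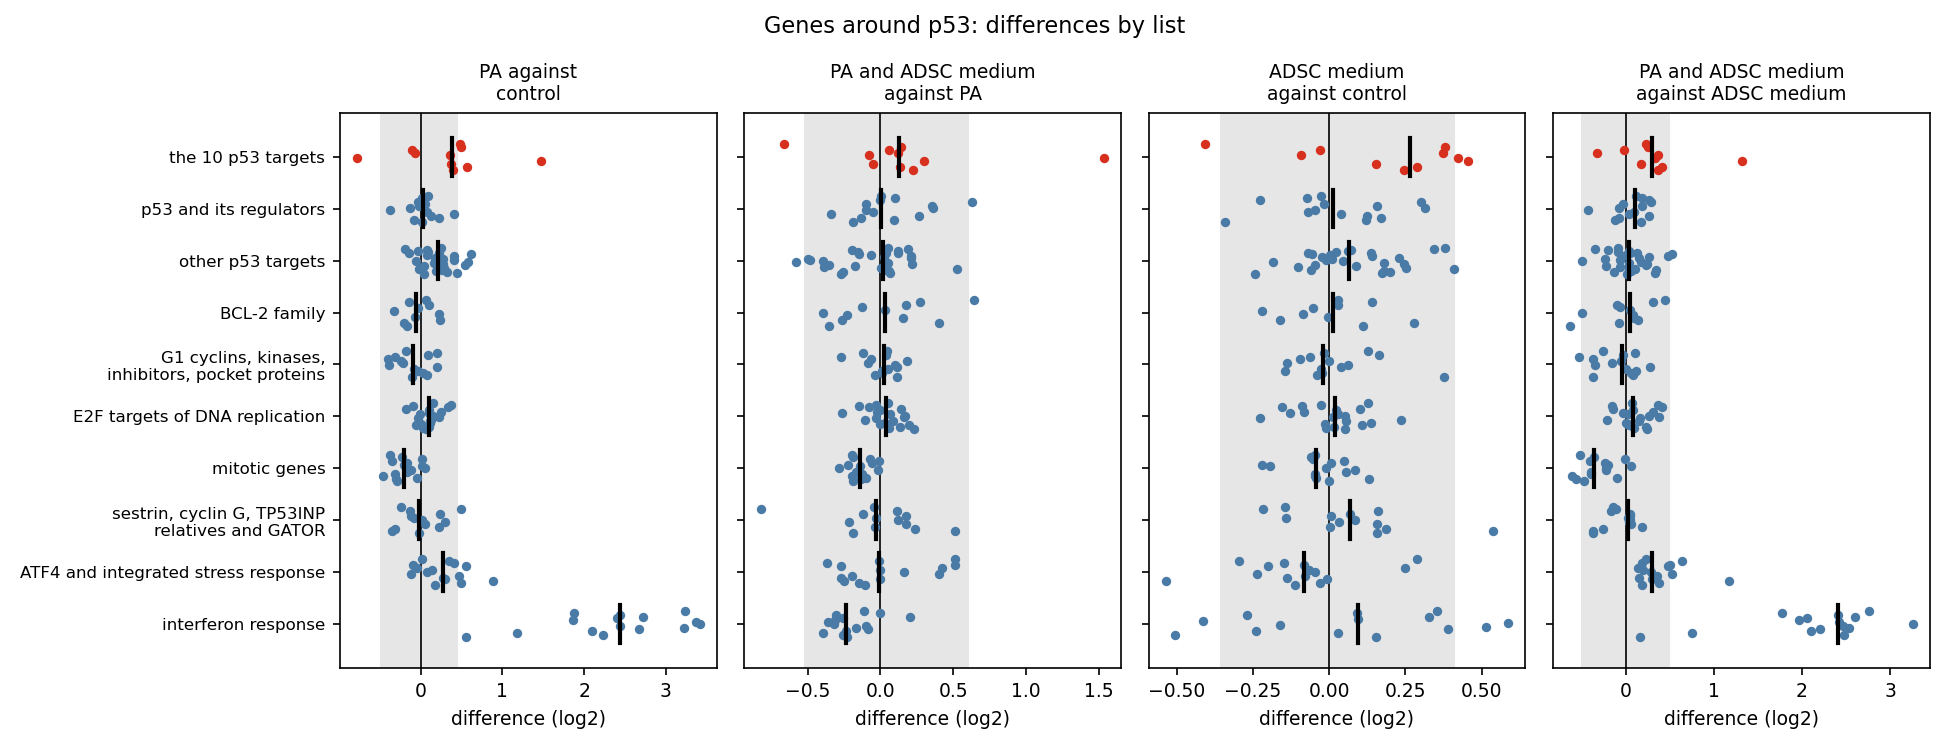
Difference (log2) of every gene of 10 lists in 4 comparisons, with the list's median as a black bar; the top row holds the 10 p53 target genes (red), grey bands run from the 5th to the 95th percentile of all genes, and each panel has its own axis range. The interferon genes lie far to the right in both panels that add PA (medians 2.44 and 2.41), and the p53 target genes have medians of 0.38 and 0.29 there.

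The authors' deposited table of probes higher with PA than in control names 1580 probes without values, 3.84% of the 41146 probes with a value, and 3 of the 16 member probes are among them, 1 each of Perp, Pmaip1 and Mdm2 (A_52_P469842). The authors' deposited table of probes higher with PA than with PA and ADSC medium names 920 probes, 2.24% of those with a value, and holds 1 member probe, that of Perp. Neither holds a Cdkn1a, Bbc3 or Trp53inp1 probe, and lists of probes lower with PA were not used here. Probes in the first table differed here by as little as 0.08 (median 0.58), so absence from it does not mark a smaller change. The Mdm2 probe outside it differed by 0.59 with PA against control, and the listed one by 0.57.

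For the 6 members whose 4 levels spanned at least 1.5-fold, the genes nearest in pattern were found by Euclidean distance between the 4 levels of each, centred on their own mean, among the 17355 genes well above background on all arrays. Nearest to Cdkn1a were Aqp4 (0.040), Rfx3 (0.044) and Loxl3 (0.051). Nearest to Mdm2 were 9030607L20Rik (0.055), LOC108167440 (0.062) and Wdyhv1 (0.079), and to Trp53inp1 Arap2 (0.068), Ldha (0.073) and 4930402H24Rik (0.074). Nearest to Perp were Tmeff1 (0.056), Ppic (0.073) and Pkn3 (0.075). Sesn1 had more distant neighbours, Slc45a3 (0.109), Rec114 (0.126) and Peli2 (0.151), and so had Pmaip1, with Angptl4 (0.207), Hdc (0.233) and Ifi202b (0.287). With 4 arrays, short distances are easily reached among so many genes, and they describe these arrays only.

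The labelled cell type was checked against its markers. Of 15 stellate cell and myofibroblast markers 11 were well above background on every array, while Lrat, Reln, Hand2 and Gfap were not on any. The summed intensity of the list was 145500 with PA and ADSC medium, 160200 with PA, 145400 with ADSC medium and 171200 in control, a sum over genes that went both ways. With PA against control Des was higher (0.88) and Pdgfrb (-0.93) and Col3a1 (-0.84) lower. Des was dim, at 3.63 in control, 4.51 with PA and 3.375 with both treatments, where the spot SD was 0.290. With PA and ADSC medium against PA, Pdgfrb (1.33), Pdgfra (0.78) and Col3a1 (0.65) were higher, and Des (-1.13), Acta2 (-1.02) and Tagln (-0.64) lower. Sesn1 was lower in the first and higher in the second of these comparisons, as Pdgfrb and Col3a1 were. With ADSC medium against control Pdgfra (0.59) was higher and Acta2 (-1.43) and Tagln (-1.10) lower. With PA added to ADSC medium Tagln was higher (0.70), and Acta2 was lower with both treatments than in control (-1.22). Of markers of other cells, 1 or 2 of 6 hepatocyte, 2 of 6 macrophage, 2 of 5 endothelial and 2 of 5 adipocyte genes were well above background. Those detected were Hnf4a, with Apob only on the PA and ADSC medium array, then Cd68 and Csf1r, Kdr and Stab2, and Fabp4 and Cidec. Kdr, an endothelial marker, had a level of 8.30 in control. The rest, among them Alb, Ptprc, Adgre1, Pecam1, Cdh5, Adipoq and Plin1, were not well above background on any array. The 2 adipocyte genes went opposite ways: Fabp4 differed by 1.04 with PA and ADSC medium against PA and by 0.61 with ADSC medium against control, and Cidec by -0.50 and -0.45. The part of these markers in the results above was not tested.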

How the data were processed

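Total RNA of 4 IMS/N cultures was amplified, labelled with Cy3 and hybridized to 1 one-colour Agilent array each (design 014868, annotated on mm9), per the labels' protocols and the file headers. The deposited intensity values are the processed signals of Feature Extraction 12.1.1.1, which per the file headers are background-subtracted and detrended within each array but not scaled between arrays. Quantile normalization by the authors followed, per the series' design text, and R 3.5.1 was used, per the submitters' processing notes.

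Here control spots and spots with an outlier flag (82 to 104 an array) were left out, values were taken to log2, a probe's spots were averaged, and quantile normalization was run over the arrays with limma 3.58.1 in R 4.3.3. Later steps used Python 3.11.15 with pandas 2.3.3. RefSeq accessions named 28672 probes, and 12474 kept the array's name. The probe with the highest mean stood for its gene. A gene entered a comparison if well above background on 1 of its 2 arrays; where it was so on only 1, the dim value was raised to that array's lowest level well above background, and the gene was left out if that turned its sign. A gene past 1.5-fold was counted. Spot error came from probes printed on 10 spots. The number of arrays limits the precision. The calculation of differences after quantile normalization was tested on simulated data with known changes. Other steps were not tested in that way.

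The members and gene lists were chosen with earlier results of these data known. Named are all members, the genes past 1.5-fold in each list and comparison described (at most 4 in each direction), a fixed set of p53-related genes (Trp53, Mdm4, Trp63, Trp73, Cdkn2a, Rb1, Ccnd1, Pcna, Gdf15), and 3 nearest genes for a member spanning 1.5-fold. Alternatives were 75th percentile scaling, normexp background correction (offset 50), the mean of a gene's detected probes, no filter on dim probes, and a 2-fold limit.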

Additional observations from a re-analysis of the deposited data

Results flagged for a closer look

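Sesn1 differed in opposite directions with PA without and with ADSC medium. Its difference was -0.78 on the log2 scale for PA against control and 0.33 for PA and ADSC medium against ADSC medium. Probe A_52_P53596 gave -0.65 and 0.37; the dimmest, A_51_P266644, gave -0.51 and 0.22, both within 2 spot SDs. Each of the 4 cultures has 1 array, so the difference between the effects was not tested. By the brightest probe of each gene, it was the only one of 10 members with opposite signs. The other Ccng1 probe gave 0.02, within 2 spot SDs, and -0.25.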

How the results depend on the processing

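None of the 50 differences of the 10 members (5 comparisons each) turned its sign under 75th percentile scaling, normexp background correction, the mean of detected probes or no filter on dim probes. The count of members at least 1.5-fold lower with PA and ADSC medium against PA, 1 as reported, was 0 with 75th percentile scaling and 0 with normexp. With a 2-fold limit it was 0, the count lower with PA against control was 0 in place of 1, and the count higher with PA and ADSC medium against control was 1 in place of 5. The members' other counts stayed within 1.5 times of those reported, and their medians kept their signs. Over all genes, the counts 1.5-fold higher and lower were 221 and 164 with normexp and 1585 and 1510 with no filter for PA against control (532 and 596 as reported), and 344 and 101 or 1877 and 1631 for PA and ADSC medium against PA (985 and 698). They were 106 and 21 or 1557 and 1210 for ADSC medium against control (420 and 234), 248 and 143 or 1629 and 1586 for PA and ADSC medium against ADSC medium (653 and 579), and 381 and 143 or 1971 and 1672 for PA and ADSC medium against control (855 and 670). Under normexp Pmaip1 moved to 0.82 from 1.78 for PA and ADSC medium against control. No paired analysis was possible because each group has 1 array. Spot error limits differences under a level of 5, and the spread between cultures is unknown.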
